A study of Nannochloropsis oceanica with 36 samples.

Results

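Nannochloropsis oceanica IMET1 is a single-celled marine alga of the eustigmatophytes that stores oil. Described here are cells of this strain kept without nitrogen for 12 h, set against cells kept without nitrogen for 6 h. These are 6 of the 36 messenger RNA libraries of the study, 3 per time, chosen by their titles. Set beside them are 6 N-replete libraries of the same hours and 6 N-deprived libraries of 24 and 4 h, which share no library with the main comparison. All cells came from mid-logarithmic cultures under continuous light with CO2-enriched air, were washed in sterile seawater and were put at equal cell number into N-deprived or N-replete medium. The labels name whole cells as the source and nuclear RNA as the molecule, while their protocol describes total RNA selected for poly(A). Each medium had 3 biological replicate cultures from which aliquots were taken over time, and the labels do not say whether a replicate number follows 1 culture. The unit of the deposited values is FPKM, the sequenced fragments of a gene model scaled to transcript length and to all mapped fragments, so a value is a share of its library.

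Algae that run out of nitrogen slow or stop division, take down chlorophyll and nitrogen-rich proteins and turn fixed carbon towards storage lipid and carbohydrate. Nannochloropsis is known for the amount of triacylglycerol it lays down in this state. Diacylglycerol acyltransferases attach the last fatty acid of that oil to diacylglycerol.

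Summed FPKM was 475304 to 525082 in the N-deprived 12 h libraries and 536676 to 552351 in the N-deprived 6 h libraries, within a range of 475304 to 629498 over all 36. Total fragment numbers are unknown, but steps between low values gave relative depths of 1, 1 and 1.62 at 12 h, against 0.719, 0.898 and 0.899 at 6 h. Replicates had a Pearson's r, on log2(FPKM + 1) over genes, of 0.991 to 0.993 at 12 h and 0.992 to 0.994 at 6 h, and genes are not independent. The 12 h libraries of both media stood apart from the rest of the study: on the first principal component, with 53.1% of the variance, they lay between 96.9 and 102.1, against -44.4 to 5.04 for the other 30. What sets 12 h apart in handling, batch or culture state cannot be told apart from time itself, because every 12 h library shares it.

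Between 6 and 12 h without nitrogen most transcripts changed in level as deposited, with fewer genes higher than lower and the largest rises steeper than the largest falls. Of 9647 gene models tested (at least 1 FPKM in at least 3 of 36 libraries), 8388 or 86.9% passed a Benjamini-Hochberg adjusted p of 0.05 in limma, 1962 higher and 6426 lower at 12 h. At least 2-fold on the log2(FPKM + 1) scale, 1021 genes (10.6%) were higher and 2546 (26.4%) lower. At least 8-fold, the numbers turned round to 318 higher and 17 lower, and to 483 and 4 after the median centring described next. The 3 libraries of 12 h and the 3 of 6 h did not overlap for 8403 genes, 87.1% of those tested.

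The split between rises and falls depended on the scale. The median gene lay at 18.9 to 20.7 FPKM in the 12 h libraries, against 27.4 to 28.1 FPKM in the 6 h libraries. Over all genes the log2 change had a median of -0.59, while the 100 most abundant genes of each library took 27.3 to 28.3% of its FPKM at 12 h and 16.6 to 16.7% at 6 h. When every library was shifted so that its median log2 ratio to the mean library was 0 (median centring), the median change became 0.01, and the calls split into 3933 higher and 3751 lower, 51.2% higher against 23.4% as deposited. Centred, rises of 2-fold or more numbered 1653 (17.1%) and falls of that size 611 (6.33%), and the libraries of 7657 genes or 79.4% did not overlap. Quantile normalization lay between, with a median of -0.24, 36.7% of calls higher, and 1299 genes higher and 1204 lower at least 2-fold.

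**Figure D1:**
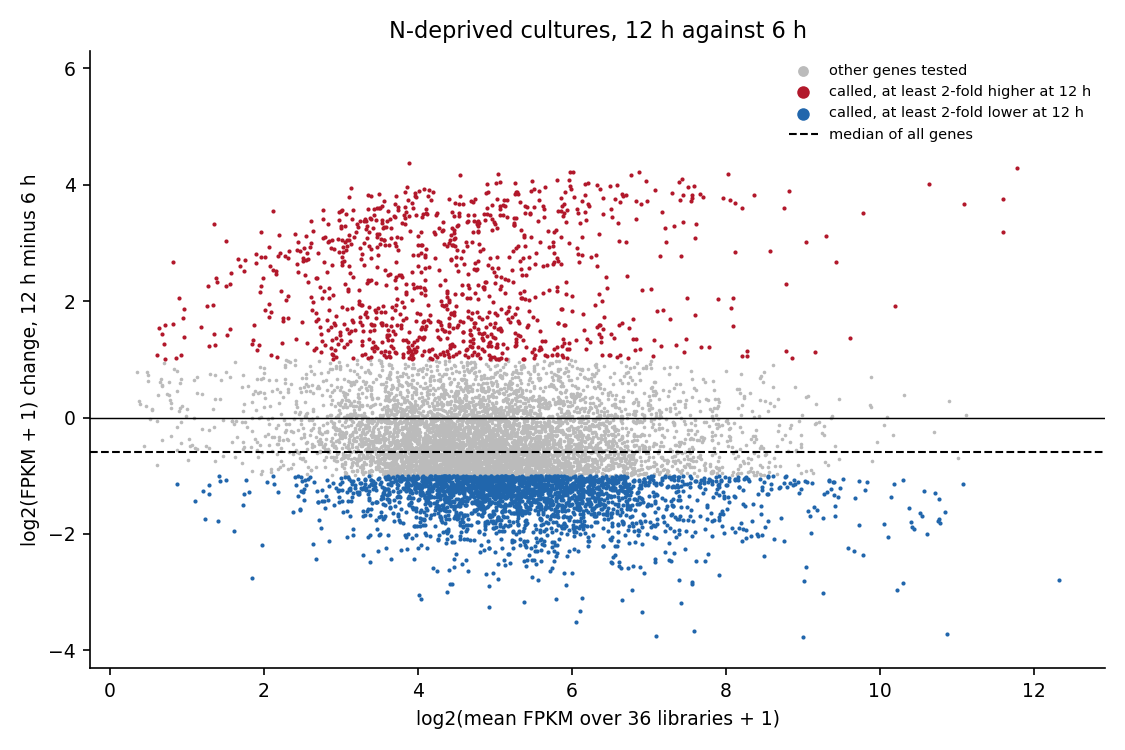
Change of each gene model tested in N-deprived cultures, as the mean log2(FPKM + 1) at 12 h minus that at 6 h, against its mean level over 36 libraries as log2(mean FPKM + 1). Red points are the 1021 genes called and at least 2-fold higher at 12 h, blue points the 2546 called and at least 2-fold lower, and the dashed line is the median of all genes at -0.59.

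The rises reached the top of the expression range. The 4 largest gains in FPKM were also the 4 most abundant transcripts at 12 h, and by mean level they had ranked 20, 56, 12 and 42 at 6 h. The identifiers carry no name or function, so genes are given by identifier and locus, by the scaffold positions of the files (1-based), whose build the sources used here do not name. Scaffold00096.g3746 (scaffold00096, 847689 to 852063) had 13775, 14832 and 13773 FPKM at 12 h, against 1148, 999.6 and 991.9 FPKM at 6 h. Scaffold00081.g2813 (scaffold00081, 57816 to 59427) had 13269, 14091 and 12979 FPKM at 12 h, against 819.9, 603.3 and 647.4 FPKM at 6 h. All 3 libraries of 12 h stood more than 10-fold above all 3 of 6 h for both of these genes.

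Next in gain was scaffold00336.g9678 (scaffold00336, 1 to 439), a model of 439 bp at the edge of its scaffold, with 11398, 12461 and 10413 FPKM at 12 h and 1192, 1303 and 1272 FPKM at 6 h. Scaffold00096.g3747 (scaffold00096, 853738 to 856630), the next model after g3746, had 9242, 9893 and 11004 FPKM at 12 h and 829.7, 761.9 and 765.1 FPKM at 6 h. Their log2 changes in limma were 3.76 (SE 0.17) for g3746, 4.29 (SE 0.23) for g2813, 3.18 (SE 0.24) for g9678 and 3.67 (SE 0.16) for g3747, with Benjamini-Hochberg adjusted p of 1.03e-18, 5.92e-17, 1.89e-13 and 3.66e-19. Together these 4 models took 9.31, 9.77 and 10.1% of the summed FPKM in the 12 h libraries, against 0.722, 0.666 and 0.685% in the 6 h libraries. Quantile normalization, which gives every library the same top values, left log2 changes of 2.39, 2.54, 0.98 and 1.92. In N-replete medium, as deposited, the same 4 models took 9.35, 9.06 and 9.53% of the summed FPKM at 12 h. At 6 h they took 0.607, 0.471 and 0.333% there.

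The steepest rises in ratio were 6 genes with log2 changes of 4.19 to 4.37, of which g2813 above is one. Scaffold00007.g304 (scaffold00007, 843010 to 845021) had 67.3, 76.2 and 58.1 FPKM at 12 h, against 2.84, 2.00 and 2.09 FPKM at 6 h. That is a log2 change of 4.37 (SE 0.21; limma, adjusted p = 3.48e-18), or 20.6-fold. Scaffold00145.g4870 (scaffold00145, 27932 to 30131) had 516.3, 560.03 and 532.4 FPKM at 12 h and 30.1, 27.8 and 25.8 FPKM at 6 h, 18.6-fold higher. In both genes the replicates of a time lay close together and the times far apart.

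The others were scaffold00026.g1515, scaffold00295.g8717 and scaffold00007.g34. Scaffold00007.g34 (scaffold00007, 74226 to 75661) averaged 128 ± 12.6 FPKM at 12 h and 6.08 ± 0.449 FPKM at 6 h (SD, n = 3 each). Scaffold00026.g1515 (scaffold00026, 1482329 to 1484973) averaged 288 ± 15.4 FPKM at 12 h and 14.6 ± 1.36 FPKM at 6 h (SD, n = 3 each). Scaffold00295.g8717 (scaffold00295, 1136970 to 1137324) is a model of 355 bp whose libraries spread widely, at 246.5, 290.9 and 142.2 FPKM at 12 h and 20.7, 3.65 and 15.1 FPKM at 6 h. Leaving out 1 library moved its log2 change of 4.21 to between 3.54 and 4.65, and it passed the test in each case.

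The falls were shallower and included transcripts that had led the 6 h libraries. Scaffold00069.g2383 (scaffold00069, 445093 to 446789), the most abundant transcript at 6 h, had 632.4, 574.5 and 543.6 FPKM at 12 h, against 3747, 4334 and 4123 FPKM at 6 h. It ranked 64 by mean level at 12 h. Its log2 change was -2.80 (SE 0.11; limma, adjusted p = 3.23e-20), 6.96-fold lower.

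Scaffold00214.g6113 (scaffold00214, 168652 to 170441) had 133.8, 121.9 and 106.7 FPKM at 12 h, against 1500.5, 1696 and 1612 FPKM at 6 h, and was at once among the deepest falls in ratio, at 13.2-fold, and in FPKM. Scaffold00354.g10165 (scaffold00354, 521052 to 524902) had 455.0, 455.3 and 401.2 FPKM at 12 h, against 1878, 1799 and 1747 FPKM at 6 h. No library of 12 h reached the lowest of 6 h in either gene, which the rule for naming genes required.

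The gene second in level at 6 h, scaffold00145.g4962 (scaffold00145, 358296 to 359920), had 2631, 2501 and 2132 FPKM at 12 h and 3995, 3963 and 3814 FPKM at 6 h. Its log2 change of -0.70 (SE 0.096; limma, adjusted p = 6.15e-08) was close to the median of all genes, and after centring it was -0.10 with an adjusted p of 0.2 in limma. Its fall in FPKM therefore holds as deposited and was not called relative to the median gene.

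The deepest falls in ratio ran from 10.1-fold to 13.7-fold. Scaffold00259.g7398 (scaffold00259, 601462 to 603864) had 21.3, 21.7 and 19.5 FPKM at 12 h, against 275.8, 312.4 and 304.1 FPKM at 6 h, a log2 change of -3.77 (SE 0.098; limma, adjusted p = 6.45e-24). Scaffold00096.g3545 (scaffold00096, 272167 to 274734) had 4.76, 3.84 and 3.46 FPKM at 12 h, against 60.1, 71.1 and 67.97 FPKM at 6 h. The replicates of each time lay within a narrow band in both, far from those of the other time.

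Scaffold00055.g2163 (scaffold00055, 260 to 2507) averaged 9.67 ± 1.52 FPKM at 12 h and 133 ± 9.18 FPKM at 6 h (SD, n = 3 each). Scaffold00009.g723 (scaffold00009, 1063732 to 1064351) averaged 11.1 ± 2.21 FPKM at 12 h and 136 ± 6.15 FPKM at 6 h (SD, n = 3 each). Scaffold00185.g5899 (scaffold00185, 441218 to 442872) averaged 6.17 ± 0.634 FPKM at 12 h and 71.6 ± 5.16 FPKM at 6 h (SD, n = 3 each). After centring, the 6 deepest falls ran from -3.17 to -2.74 and the 6 steepest rises from 4.79 to 4.97 on the log2 scale.

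**Figure D2:**
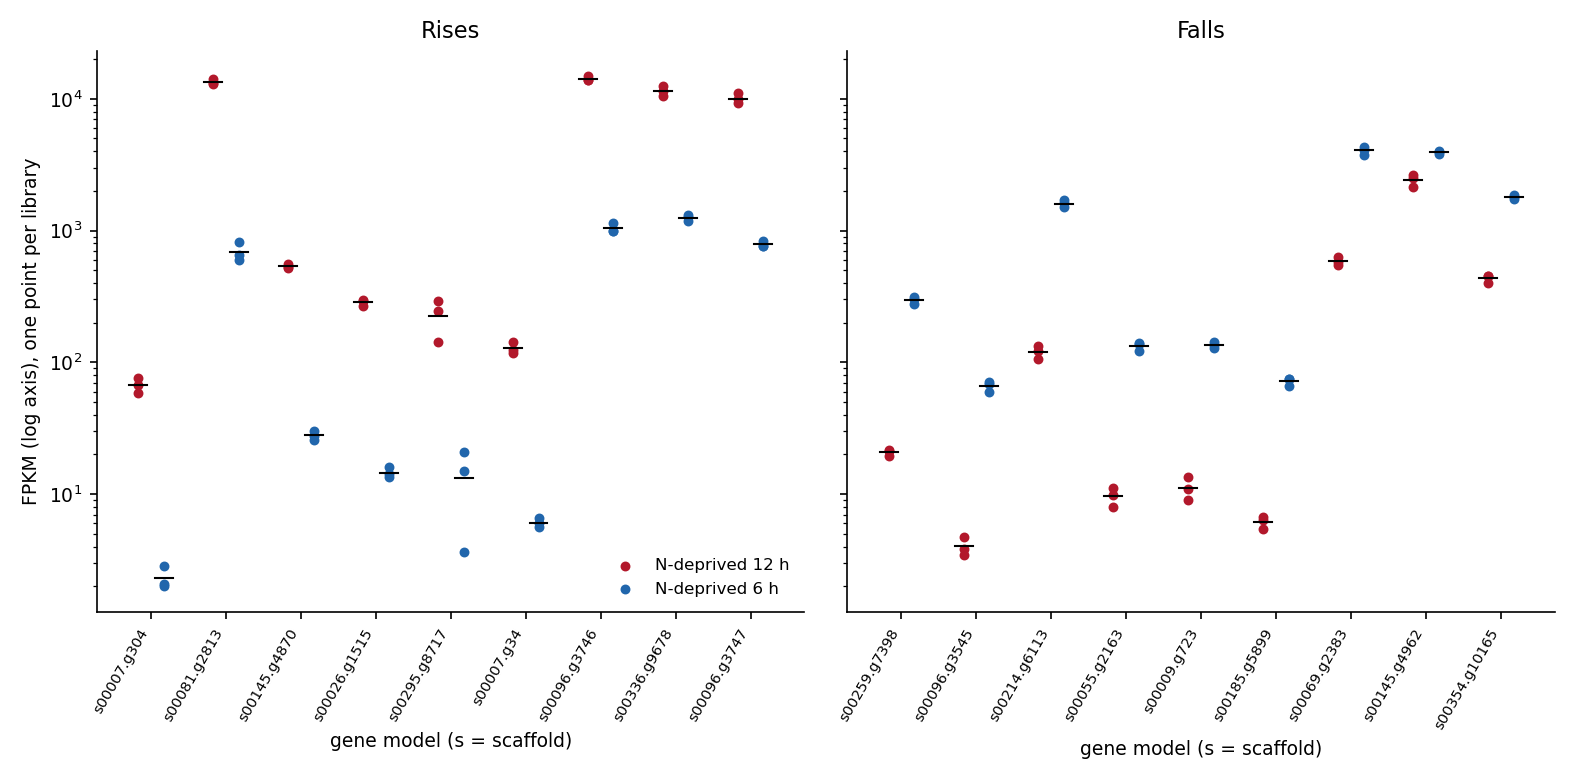
FPKM of the named rises (left panel) and named falls (right panel) in each N-deprived library on a log axis, with 12 h in red left of 6 h in blue for each gene model, 1 point per library and a bar at the mean. The genes drawn were named only if the 3 libraries of 12 h did not overlap the 3 of 6 h. Scaffold00295.g8717 shows the widest spread within a time.

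The single gene with a symbol in the files is isotig00738.DGAT1A (isotig00738, 1 to 2030), named as a type 1 diacylglycerol acyltransferase. It had 46.7, 49.2 and 49.3 FPKM at 12 h, against 35.7, 36.5 and 34.7 FPKM at 6 h, with no overlap between the times. The log2 change was 0.43 (SE 0.069; limma, adjusted p = 1.02e-06), 1.35-fold on the log2(FPKM + 1) scale, and its rank by mean level was 2080 at 12 h and 3928 at 6 h. Relative to the median gene the rise was larger, 1.03 after centring and 0.81 with quantile normalization. Over the N-deprived course it averaged 50.4 FPKM at 3 h, 42.8 at 4 h, 35.6 at 6 h, 48.4 at 12 h, 55.9 at 24 h and 63.6 at 48 h, so the 6 h level was the lowest of the 6. In N-replete medium DGAT1A averaged 29.2 ± 0.889 FPKM at 12 h and 18.8 ± 0.854 FPKM at 6 h (SD, n = 3 each), a log2 change of 0.61 (SE 0.069). The 2 changes differed by -0.17 (SE 0.097, limma adjusted p = 0.171), which did not pass as deposited. The difference did pass in limma after centring (-0.24, adjusted p = 0.0243) and with quantile normalization (-0.23, adjusted p = 0.0382).

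The same hours in N-replete medium held most of the change. In N-replete cultures the 12 h level exceeded that of 6 h by at least 2-fold for 1041 genes (10.8%) and lay below it by as much for 3071 (31.8%). Of the 1021 genes at least 2-fold higher without nitrogen, 901 were also at least 2-fold higher with it, 88.2% of the N-deprived list and 86.6% of the N-replete list. Of the 2546 at least 2-fold lower, 2048 were shared, 80.4% of the N-deprived list and 66.7% of the N-replete list. After centring, 1437 rises were shared (86.9% and 85.8% of the lists) and 402 falls (65.8% and 61.8%). Opposite changes of that size in the 2 media were found for 0 genes. Across 9647 genes Pearson's r between the changes in the 2 media was 0.945 and Spearman's rho 0.894, as a description over genes that share a time of sampling and are not independent.

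The whole group of genes at least 2-fold higher at 12 h took 34.8, 36.6 and 36.2% of summed FPKM in the N-deprived 12 h libraries, against 5.01, 4.67 and 4.60% in the N-deprived 6 h libraries. In N-replete medium it took 38.1, 37.4 and 37.1% at 12 h and 4.96, 4.46 and 3.56% at 6 h. The group was chosen on the N-deprived values, so the first of these is a description, and the N-replete libraries had no part in the choice. The group of falls took 16.4, 15.8 and 15.7% in N-deprived 12 h libraries, against 41.1, 41.0 and 41.3% at 6 h, and 20.5, 21.1 and 21.5% in N-replete 12 h libraries, against 44.0, 44.6 and 46.0% at 6 h.

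As deposited, most of these genes had their extreme at 12 h rather than passing through it. Of the 1021 rises, 923 (90.4%) had their highest N-deprived group mean of the 6 times at 12 h, and 965 (94.5%) had their highest N-replete mean there. Over all genes tested 14.6% peaked at 12 h without nitrogen and 15.5% with it. Of the 2546 falls, 2068 (81.2%) had their lowest N-deprived mean at 12 h and 2408 (94.6%) their lowest N-replete mean, beside 58.1% and 63.7% of all genes. The members were chosen on the N-deprived 12 h values themselves, which makes 12 h a likely extreme of the N-deprived course, so the N-deprived shares are a description. The N-replete values had no part in the choice.

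Libraries of 24 and 4 h without nitrogen give a comparison that spans the same hours and shares none of the 6 libraries. There, 1177 genes (12.2%) reached 2-fold upward and 1048 (10.9%) 2-fold downward at 24 h. Of the 1021 rises 400 were at least 2-fold higher there as well (39.2% of the rises, 34.0% of the later list), 5 were at least 2-fold lower, and their median log2 change was 0.86, against 2.28 between 12 and 6 h. Of the 2546 falls 823 were at least 2-fold lower (32.3% of the falls, 78.5% of the later list), with 3 at least 2-fold higher and a median of -0.62, against -1.29. After centring, 1122 of 9647 genes reached 2-fold upward and 1097 reached 2-fold downward at 24 h. Of 611 centred falls 466 were at least 2-fold lower there (76.3% of the falls, 42.5% of the later list). Of 1653 centred rises 638 were at least 2-fold higher (38.6% of the rises, 56.9% of the later list). The 2 changes had a Pearson's r of 0.615 and a Spearman's rho of 0.696 across genes.

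The highly expressed genes show both patterns. Scaffold00096.g3746 averaged 1047 FPKM at 6 h, 14127 at 12 h, 2058 at 24 h and 2005 at 48 h without nitrogen. Scaffold00336.g9678 averaged 1256 FPKM at 6 h, 11424 at 12 h, 1128 at 24 h and 207 at 48 h, and its change between 24 and 4 h was 0.13 (SE 0.24; limma, adjusted p = 0.625). Scaffold00069.g2383 had lower averages at each step, 4068 FPKM at 6 h, 583.5 at 12 h, 322.9 at 24 h and 73.5 at 48 h. Scaffold00145.g4962 stood at 3924 FPKM at 6 h, 2421 at 12 h, 3947 at 24 h and 4536 at 48 h. As deposited, 12 h was thus a dip in its course. Relative to the median gene, its fall from 6 to 12 h was not called (-0.10 after centring, limma adjusted p = 0.2).

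Which changes depended on nitrogen was asked by testing the difference between the N-deprived and the N-replete change. It was called for 3156 genes (32.7%), 1945 more positive and 1211 more negative without nitrogen, and after centring for 3530, with 1698 more positive and 1832 more negative. The share of more positive calls was thus 61.6% as deposited and 48.1% centred, so the direction of the smaller differences depended on the scale. Differences of at least 2-fold were few, 82 more positive and 223 more negative as deposited, and 62 and 248 after centring. With only the libraries of the 4 groups in the model, 2009 genes were called. Among the 1021 rises 419 (41.0%) were called, 27 of them 2-fold or more above the N-replete change and 126 as far below it, and the median log2 change of the rises was 2.28 without nitrogen and 2.72 with it. The 6 steepest rises had differences of -0.76 to -0.03, and 0 of 6 passed as deposited. Under single alternatives scaffold00081.g2813 passed with quantile normalization (-1.17, limma adjusted p = 0.00859) and scaffold00007.g34 with only the 4 groups in the model (limma adjusted p = 0.0456). Scaffold00096.g3746, scaffold00336.g9678 and scaffold00096.g3747 did not pass as deposited either. The first passed after centring (-0.68, limma adjusted p = 0.0261), with a filter of 10 FPKM (0.0485) and with a replicate block (0.0397). Quantile normalization gave -1.45 for scaffold00336.g9678 (limma adjusted p = 0.00552) and -1.06 for scaffold00096.g3747 (limma adjusted p = 0.000123). Among the 2546 falls 783 (30.8%) were called, 55 at least 2-fold deeper without nitrogen and 15 at least 2-fold shallower, against 54 and 3 of the 611 falls after centring. Of the 6 deepest falls 5 were deeper without nitrogen, the exception being scaffold00009.g723. That gene averaged 6.18 FPKM at 12 h and 104 FPKM at 6 h in N-replete medium. Its difference was 0.39 (SE 0.19, limma adjusted p = 0.129). Rises and falls were chosen on the N-deprived change, which is itself part of the difference. Counts of larger or smaller changes among them are therefore a description.

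**Figure D3:**
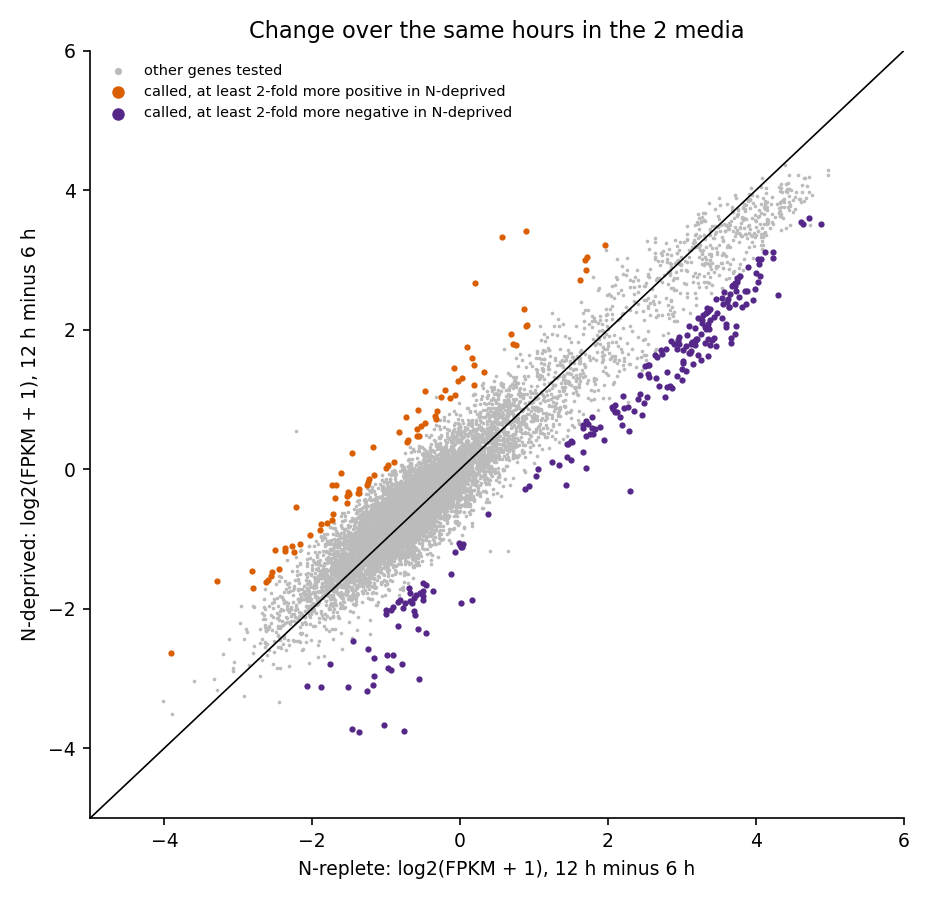
Change between 12 and 6 h in N-deprived cultures (vertical axis) against that in N-replete cultures (horizontal axis), both as log2(FPKM + 1) differences of group means, 1 point per gene model tested. The diagonal marks equal change, orange points are the 82 genes called and 2-fold or more above their N-replete change, and purple points the 223 called and as far below it. Of the purple genes 126 are among the 1021 rises without nitrogen.

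Among the 4 genes with the most positive difference, 2 rose steeply without nitrogen. Scaffold00058.g2171 (scaffold00058, 15276 to 18251) had 13.3, 15.01 and 13.2 FPKM at 12 h and 0.474, 0.706 and 0.271 FPKM at 6 h without nitrogen, while with nitrogen it averaged 0.929 ± 0.459 FPKM at 12 h and 0.290 ± 0.164 FPKM at 6 h (SD, n = 3 each). Scaffold00127.g4200 (scaffold00127, 120446 to 124007) had 42.97, 46.7 and 40.3 FPKM at 12 h and 3.46, 3.52 and 2.55 FPKM at 6 h without nitrogen, and averaged 3.68 ± 1.22 and 1.47 ± 0.0868 FPKM at 12 and 6 h with it (SD, n = 3 each). For both genes the N-deprived 12 h libraries stood above those of every other group, and by 24 h their N-deprived means were 1.24 and 5.65 FPKM. The differences between media were 2.77 (SE 0.22) for g2171 and 2.52 (SE 0.20) for g4200, with limma adjusted p of 5.41e-11 and 9.22e-11.

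The other pair had lower levels at 12 h in both media, with the smaller change without nitrogen. Scaffold00330.g9242 (scaffold00330, 274918 to 276522) had 6.11, 5.47 and 4.14 FPKM at 12 h and 17.99, 17.6 and 17.98 FPKM at 6 h without nitrogen, and averaged 0.938 ± 0.0951 FPKM at 12 h and 18.0 ± 1.48 FPKM at 6 h with it (SD, n = 3 each). Its difference was 1.69 (SE 0.12; limma, adjusted p = 1.37e-11). Scaffold00330.g9205 (scaffold00330, 176279 to 176682), a model of 404 bp, had 8.59, 7.94 and 8.55 FPKM at 12 h and 10.8, 13.8 and 13.4 FPKM at 6 h without nitrogen, and in N-replete medium 3.96, 3.47 and 1.11 FPKM at 12 h and 13.7, 13.02 and 22.2 FPKM at 6 h. Its difference was 1.69 (SE 0.34; limma, adjusted p = 0.000379), but its own N-deprived change of -0.54 (adjusted p = 0.0395) became 0.06 after centring (adjusted p = 0.826).

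The most negative differences belonged to 4 genes whose mean without nitrogen lay below that with nitrogen at every time. Scaffold00096.g3545, scaffold00055.g2163 and scaffold00259.g7398 were also among the deepest falls above. In N-replete medium scaffold00096.g3545 averaged 82.8 ± 11.4 FPKM at 12 h and 142 ± 32.1 FPKM at 6 h (SD, n = 3 each), a log2 change of -0.76 against -3.75 without nitrogen. Its difference of -2.99 (SE 0.18; limma, adjusted p = 4.30e-13) was the most negative among the named genes. Scaffold00185.g5950 (scaffold00185, 595276 to 598245) had 39.4, 32.5 and 28.8 FPKM at 12 h, against 257.3, 290.9 and 281.3 FPKM at 6 h, without nitrogen. With nitrogen it averaged 517 ± 28.0 FPKM at 12 h and 768 ± 126 FPKM at 6 h (SD, n = 3 each), and the difference was -2.46 (SE 0.14; limma, adjusted p = 4.99e-14).

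These 4 genes also stayed low without nitrogen, with means at 24 and 48 h below those of 6 h, although 24 h lay above 12 h. Without nitrogen scaffold00096.g3545 averaged 4.02 FPKM at 12 h and 17.7 FPKM at 24 h, and scaffold00055.g2163 9.67 and 41.4 FPKM. Scaffold00259.g7398 averaged 20.8 and 77.9 FPKM at these times, and scaffold00185.g5950 33.6 and 60.5 FPKM. At 48 h without nitrogen scaffold00096.g3545 averaged 5.84 FPKM, scaffold00055.g2163 21.3 FPKM, scaffold00259.g7398 40.2 FPKM and scaffold00185.g5950 28.1 FPKM, against 226, 242, 731 and 1180 FPKM with nitrogen. In N-replete medium their 12 h level was the lowest of the 6 times, and the 24 h level was back at or above that of 3 h. After centring, their N-replete changes between 12 and 6 h were -0.71 to 0.11, while the N-deprived ones were -3.17 to -2.41.

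**Figure D4:**
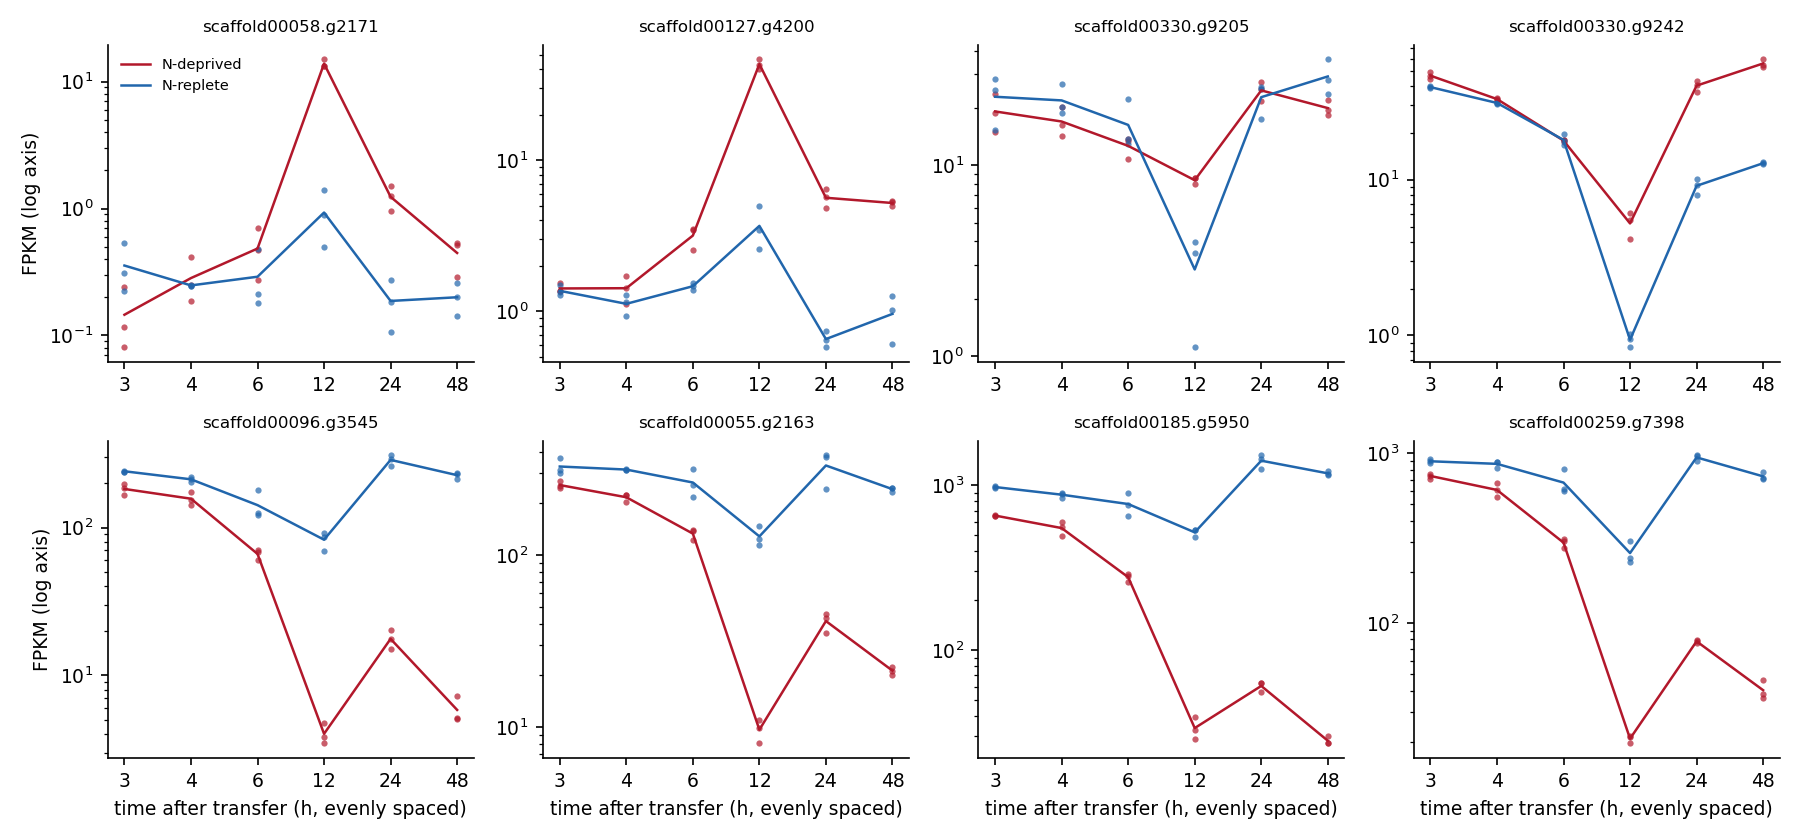
FPKM (log axis) over 3 to 48 h of the 4 gene models with the most positive (top row) and the 4 with the most negative (bottom row) difference between media, N-deprived in red and N-replete in blue, 1 point per library and a line through the group means. In the bottom row the means of both media are lower at 12 h than at 6 h and higher at 24 h than at 12 h. By 24 h the N-replete means are back at or above those of 3 h, while the N-deprived means stay below those of 6 h.

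The level of a transcript went along with its change. By mean level over all 36 libraries, the median log2 change without nitrogen was 0.09 for 289 genes above 1 and up to 5 FPKM, -0.17 for 753 genes up to 10 FPKM, -0.56 for 3163 genes up to 25 FPKM and -0.77 for 950 genes above 100 and up to 500 FPKM. For the 108 genes above 500 FPKM it was -1.09, with 12 rises of 2-fold or more and 59 falls (54.6%) of that size. In N-replete medium the same 108 genes had a median of -0.57, beside -0.68 for all genes. Their median difference between media was -0.56, and 68 of them were called more negative and 11 more positive without nitrogen, beside 1211 and 1945 of all 9647 genes as deposited. Below 50 FPKM the calls leaned to more positive, as they did over all genes as deposited. Among the 2780 genes above 25 and up to 50 FPKM, 281 were called more negative and 597 more positive. The median difference between media of these 2780 genes was 0.08 as deposited and 0.01 after centring, while that of the 108 genes was -0.63 after centring. After centring, the median change without nitrogen was 0.69 for the 289 genes above 1 and up to 5 FPKM and -0.49 for the 108. The log2(FPKM + 1) scale understates changes of low genes, and its part in this trend was not tested. The mean over 36 libraries includes the 12 compared, so these classes are not independent of the changes, and the classes were chosen after values were seen.

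Genes at least 2-fold higher often lay side by side on the scaffolds. The model adjacent to a gene at least 2-fold higher was itself at least 2-fold higher in 602 of 1952 cases, 30.8%, beside 10.6% of all genes. At 2 models apart it was 17.5% and at 10 models apart 13.4%. For genes at least 2-fold lower the adjacent model was lower in 36.8% and the one 10 models away in 26.6% of cases, beside 26.4% of all genes. After centring, the model adjacent to a rise was also a rise in 34.2% of cases, beside 17.1% of all genes. The model adjacent to a fall was then also a fall in 17.7%, beside 6.33% of all genes. The share among neighbours of rises was 31.7% for gaps up to 200 bp and 30.4% for gaps above 1000 bp, and no adjacent loci overlapped. The libraries carry no strand, and the part of reads running on from a neighbour was not tested. Positions were examined after values were seen, and neighbours are not independent, so these shares have no test.

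Of the 1021 rises, 489 lay in 188 unbroken runs of at least 2 models, and after centring 867 of 1653 lay in 327. The longest held 27 consecutive models tested, scaffold00295.g8689 to scaffold00295.g8717 (scaffold00295, 1085280 to 1137324, 52045 bp), and reached the last model of the scaffold. The log2 changes of its members ran from 1.65 to 4.21 with a median of 2.85. Their summed FPKM was 3547, 3949 and 3040 at 12 h, against 554.1, 404.3 and 441.2 at 6 h, without nitrogen. In N-replete medium the changes of the members were 0.81 to 4.98 and the sum averaged 2516 ± 657 at 12 h and 408 ± 98.0 at 6 h (SD, n = 3 each), and the difference between media was called for 5 of 27, beside 32.7% of all genes. By 24 h without nitrogen the sum was back at 492 ± 59.4 (SD, n = 3). The 15 models before the run had changes of -1.72 to 3.44, with a median of -0.23.

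The second run, of 16 models, also reached the last model of its scaffold, from scaffold00026.g1503 to scaffold00026.g1519 (scaffold00026, 1456248 to 1494702, 38455 bp). Its changes ran from 1.33 to 4.21 with a median of 3.75. The summed FPKM was 1605, 1756 and 1396 at 12 h, against 118.6, 98.6 and 98.7 at 6 h, without nitrogen, and averaged 1631 ± 234 at 12 h and 88.5 ± 19.7 at 6 h with nitrogen (SD, n = 3 each). The difference between media was called for 1 of 16, beside the same 32.7%. The 15 models before it had changes of -2.06 to 3.91, with a median of 0.23, so some of them stood as high as the run itself. The longest run of falls held 8 models (scaffold00182, 734606 to 751015).

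**Figure D5:**
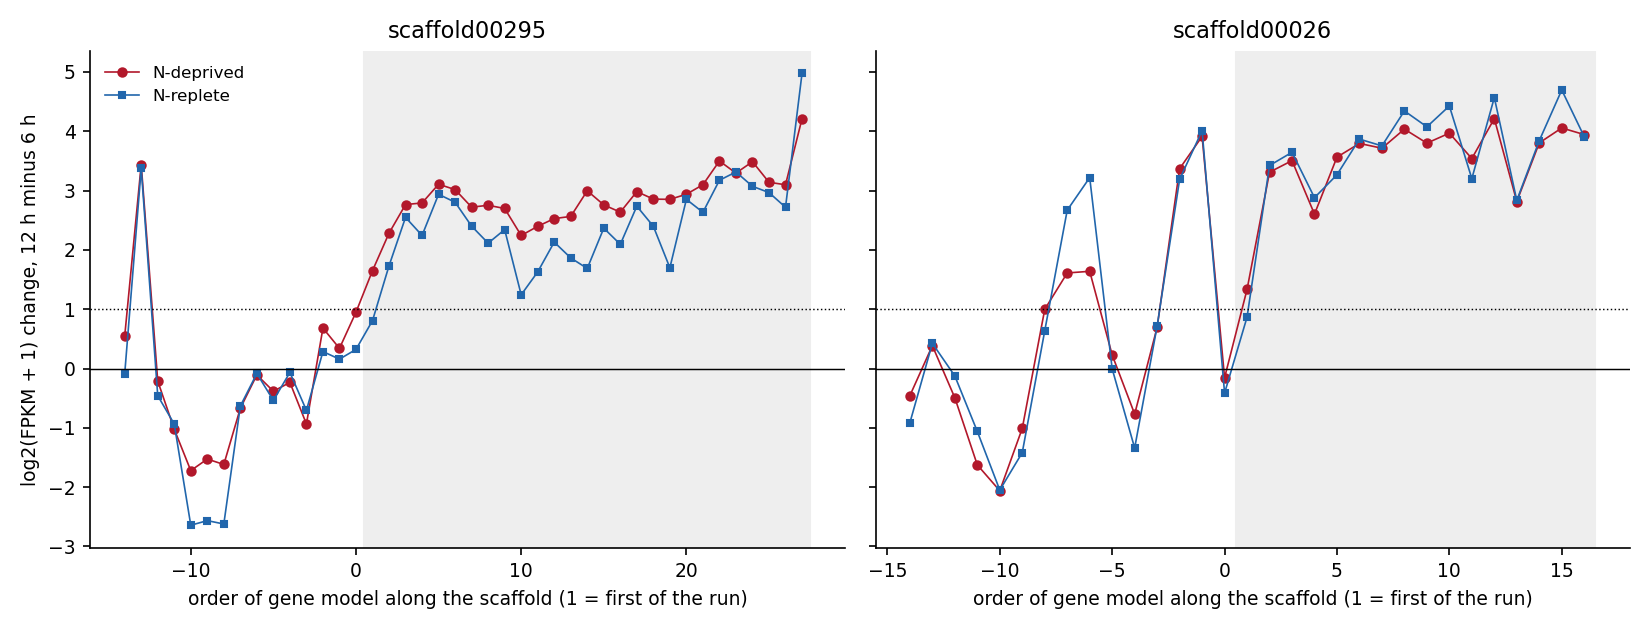
Change in log2(FPKM + 1) between 12 and 6 h of consecutive gene models along scaffold00295 (left) and scaffold00026 (right), numbered from the first model of the run, in N-deprived (red circles) and N-replete cultures (blue squares). The shaded models are the runs of 27 and 16 rises, the dotted line marks 2-fold, and every shaded model lies above the dotted line without nitrogen, up to the last model of the scaffold. Models before both runs lie above the dotted line too, a single model at 3.44 on scaffold00295 and adjacent models at up to 3.91 on scaffold00026.

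Models near scaffold ends rose more often in general. On the 34 scaffolds with at least 40 models tested, 23.4% of the 333 models within 5 places of an end were at least 2-fold higher at 12 h without nitrogen. The share was 19.6% at places 6 to 10, 17.4% at places 11 to 20 and 8.52% of the 7393 models farther in. Without the 2 long runs the shares were 21.1%, 17.1%, 15.3% and 8.43%. In N-replete medium they were 24.6%, 20.8%, 17.4% and 8.70%. Falls were not more frequent there, at 22.8%, 18.1%, 22.8% and 27.5%. After centring, the rises made up 30%, 25.9%, 23.7% and 14.9%. Scaffold ends were looked at because of the 2 runs, so the shares are a description of these models, and whether an end of a scaffold is an end of a chromosome is not given in the sources used here.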

How the data were processed

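FPKM values per gene model were deposited by the authors, and TopHat2 2.0.4 and Cufflinks 2.0.2 are the tools named for reads of paired poly(A) libraries without strand information, per the submitters' processing notes and the labels' protocols. The genome build is not given in the sources used here, and fragments shared by near-identical genes may be split. The table of the whole series and the tables per library differed in 0 values. Of 9756 models on 284 sequences, 0 matched the 160 reference genes used, so no gene lists were run.

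Models that reached 1 FPKM in 3 or more of 36 libraries were tested on log2(FPKM + 1) with limma 3.58.1 in R 4.3.3 (12 group means over 36 libraries, trended prior), with two-sided p-values adjusted by Benjamini-Hochberg over 9647 genes per comparison. The script was tested on simulated data. Folds are on the log2(FPKM + 1) scale, understate changes of low genes, and run 12 h over 6 h. The difference between media is the N-deprived change minus the N-replete change. Exact zeros can be failed estimates. Total depth is unknown. Relative depth was set so that values of 85 of 106 low genes were whole fragments, which 97.8% of 2292 values were within 0.1, the genes having been kept for this property. Replicates were distinct, with at most 0.0103% of values equal.

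Named genes were called, did not overlap between times and averaged at least 10 FPKM at 6 or 12 h. Taken were the 6 largest log2 rises and falls, the 4 largest FPKM rises and falls, the 4 most positive and 4 most negative differences between media among genes called for it, and DGAT1A. Members, tests and lists were chosen with earlier results of these data known. Classes of level and length, runs, neighbours, scaffold ends and times of extremes were chosen after values were seen. Alternatives were median centring, quantile normalization, a pseudocount of 0.1, no filter, a filter of 10 FPKM, only the groups compared, a constant prior, a replicate block and leaving out each library.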

Additional observations from a re-analysis of the deposited data

Results flagged for a closer look

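Between N-deprived and N-replete medium the change from 6 to 12 h differed for 3156 genes, by the limma test of the difference itself at a Benjamini-Hochberg adjusted p of 0.05. That is 32.7% of genes tested. Of the named genes 12 passed, but 8 of these were named for passing it, so their number carries no weight. The values below are the N-deprived minus the N-replete log2 change.

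Falls that were deeper without nitrogen were scaffold00096.g3545 at -2.99, scaffold00055.g2163 at -2.64, scaffold00185.g5950 at -2.46, scaffold00259.g7398 at -2.40, scaffold00214.g6113 at -2.26 and scaffold00069.g2383 at -2.01. Smaller differences of the same direction were found for scaffold00185.g5899 at -0.89 and scaffold00354.g10165 at -0.38. The last did not pass with only the libraries of the 4 groups in the model (adjusted p = 0.0918 in limma). Rises that were larger without nitrogen were scaffold00058.g2171 at 2.77 and scaffold00127.g4200 at 2.52. Shallower falls without nitrogen were scaffold00330.g9205 and scaffold00330.g9242, both at 1.69, of which the fall of g9205 itself depended on the settings.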

How the results depend on the processing

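Median centring moved the N-deprived calls to 3933 higher and 3751 lower, the genes at least 2-fold changed to 1653 higher and 611 lower, and the N-replete ones to 1674 higher and 651 lower. Quantile normalization gave 1204 genes at least 2-fold lower without nitrogen and 1214 with it. With only the groups compared in the model, 2009 genes were called for the difference between media. The change of scaffold00330.g9205 turned from -0.54 to 0.063 after centring, and its call was also lost with quantile normalization (limma adjusted p = 0.386), with a pseudocount of 0.1 (0.0598) and in the replicate block (0.05). The cause of these moves was not tested, beyond that centring takes out the median change by construction. The total calls and those of at least 2-fold stayed within 1.5 times under the other alternatives. Centring also moved the 8-fold counts, the split of the differences between media and the genes in runs, as given with each.

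Leaving out each library in turn gave 1859 to 1970 genes higher and 6197 to 6399 lower, 994 to 1033 at least 2-fold higher and 2340 to 2712 at least 2-fold lower. It gave 1020 to 1054 and 2909 to 3318 in N-replete medium, and 1122 to 1274 and 1012 to 1078 between 24 and 4 h. The difference between media was called for 2749 to 3341 genes, 70 to 114 at least 2-fold more positive and 196 to 251 more negative. DGAT1A changed by 0.41 to 0.46. Scaffold00330.g9205 lost its call in 5 of these fits. Some differences between media that did not pass in limma with all libraries did pass in some of these fits. These were the differences of scaffold00009.g723, scaffold00081.g2813, scaffold00096.g3746, scaffold00336.g9678 and scaffold00145.g4962.

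Same-numbered replicates of 12 and 6 h did not all deviate together (correlations across genes of -0.075, -0.12 and 0.060 without nitrogen, 1 of 3 libraries matching its own number best, and -0.056, 0.14 and 0.0087 with nitrogen, where 2 of 3 did). A replicate block gave 1982 genes higher, 6464 lower and 3542 differing between media. Groups of 3 and relative depths of 0.719 to 2.68 limit the precision of low genes.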

Other observations

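Some genes moved in opposite directions in the 2 media and were called in each and for the difference. As deposited, 68 were higher at 12 h than at 6 h without nitrogen and lower with it, and 20 were lower without nitrogen and higher with it. After centring the numbers were 113 and 113, and 0 genes reached 2-fold in both directions on either scale.

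The change varied little with the length of the locus. In 5 equal classes from short to long loci, the median log2 change between 12 and 6 h without nitrogen was -0.63, -0.66, -0.59, -0.51 and -0.52. In the class of the longest loci (3665 to 27535 bp) 603 genes were called more positive and 232 more negative without nitrogen, while in that of the shortest (201 to 1300 bp) it was 199 and 215. As deposited, scaffolds with at least 40 models tested had median changes from -0.71 on scaffold00069 to -0.30 on scaffold00308. The downward median of all genes, which centring brings to 0.01, was thus shared by all 34 on that scale. Shorter runs of 6 or 7 rises lay on 4 scaffolds. They were on scaffold00259 (14871 to 41940, 7 models) and scaffold00043 (3796 to 23351, 6 models), with log2 changes of 2.85 to 4.07 and 2.49 to 4.10. The others were on scaffold00214 (790084 to 810031, 6 models) and scaffold00340 (1 to 8190, 6 models), with log2 changes of 2.29 to 3.25 and 1.18 to 3.25.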
